A study of Mus musculus with 2 samples.

Results

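Described here are 9 genes of transforming growth factor beta (TGF-beta) and activin signalling, of 31053 genes counted, across 4 classes of barcodes from mouse tumours. They are the ligand genes Tgfb1, Tgfb2, Tgfb3 and Inhba, the receptor genes Tgfbr1 and Tgfbr2, the Smad genes Smad3 and Smad7, and the target gene Ctgf, all chosen by name. The classes were gated on counts of unique molecular identifiers (UMIs). Macrophage barcodes held at least 3 UMIs of C1qa, C1qb and C1qc together, and T barcodes at least 2 of Cd3d, Cd3e and Cd3g. Dcn/Lum barcodes held at least 3 UMIs of Dcn and Lum, at most 2 of Krt8 and Krt18 and none of Ptprc. Tumour barcodes held at least 3 UMIs of Krt8 and Krt18 and none of Ptprc. All 9 genes passed the count minimum in every comparison.

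The cells came from tumours of mice whose strain is labelled NGS in a study of triple negative breast cancer and inhibitors of ACSS2, the enzyme that makes acetyl-CoA from acetate. Cells of 3 samples treated with ACSS2i and 3 given vehicle were run as 1 multiplexed droplet library, with between 4000 and 6000 live cells from each. Antibodies labelled U2, U3, U4, D0, D1 or D4 tagged each sample. Which tag belongs to which arm was not given in the sources used here, so ACSS2i was not compared with vehicle. The series' design text names Bmal1 status, which no label of the pool gives, and neither the age of the mice nor how the tumours were made is stated. The comparisons below are therefore between cell classes, with the tags shown singly as samples of unknown treatment.

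TGF-beta ligands are secreted in latent complexes and must be released before they bind TGFBR2, which recruits and phosphorylates TGFBR1. The activated receptor phosphorylates SMAD2 and SMAD3, which enter the nucleus with SMAD4, and activin A, the dimer encoded by Inhba, feeds the same SMADs through receptors of its own. SMAD7 is an inhibitor induced by the pathway, and Ctgf is a target that the YAP coactivator also drives; in breast tumours the pathway is known for restraint of epithelial growth early, and later for invasion, fibroblast activation and suppression of immune cells.

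The promoters of Tgfb1 and Tgfb2 are printed because their transcripts differed across the classes: Tgfb1 was highest in immune barcodes and Tgfb2 was highest in Dcn/Lum barcodes and almost absent from macrophage barcodes. Each is the 250 bases before the annotated start, from RefSeq on GRCm38.p6, written 5′ to 3′ on the gene's own strand. Capitals mark matches on either strand to GGGCGG (the GC box), TATAAA (the TATA box) and CACGTG (an E-box), none of which overlap here. The Tgfb1 window is chr7:25686752-25687001 on the plus strand and the Tgfb2 window chr1:186705990-186706239 on the minus strand.
Tgfb1: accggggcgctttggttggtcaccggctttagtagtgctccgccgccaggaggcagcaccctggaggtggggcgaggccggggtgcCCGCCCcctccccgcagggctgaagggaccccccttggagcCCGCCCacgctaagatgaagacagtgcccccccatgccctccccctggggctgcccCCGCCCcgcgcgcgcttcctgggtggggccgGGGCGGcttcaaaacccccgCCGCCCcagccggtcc
Tgfb2: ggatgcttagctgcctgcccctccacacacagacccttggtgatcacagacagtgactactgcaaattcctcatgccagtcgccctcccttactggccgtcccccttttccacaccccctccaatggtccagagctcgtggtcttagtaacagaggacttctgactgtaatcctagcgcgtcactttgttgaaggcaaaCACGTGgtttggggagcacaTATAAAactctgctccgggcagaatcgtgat
The Tgfb1 window had 75.2% G and C and 5 GC boxes, with no TATAAA or CACGTG. The Tgfb2 window had 53.6% G and C, a TATAAA beginning 31 bases before the start, a CACGTG beginning 51 bases before it, and no GC box. Among 32851 promoter windows of this length, 32.74% held GGGCGG, 12.37% TATAAA and 6.021% CACGTG, and the median G and C content was 52.4%. Neither window held TGACGTCA or TGANTCA, which 1.546% and 6.749% of windows held. These matches describe letters only, and no binding was measured. In GENCODE M21 on GRCm38, 8 of the 9 genes lie at chr7:25687002-25705077 (Tgfb1), chr1:186622792-186705989 (Tgfb2), chr12:86056745-86079041 (Tgfb3), chr13:16011851-16031621 (Inhba), chr4:47353222-47414931 (Tgfbr1), chr9:116084293-116175360 (Tgfbr2), chr9:63646767-63757994 (Smad3) and chr10:24595442-24598683 (Ctgf, listed there as Ccn2).

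After filtering, 8784 barcodes held 185064311 gene UMIs. The classes kept for analysis were 356 macrophage barcodes with 1585494 UMIs, 700 T barcodes with 1404377, 602 Dcn/Lum barcodes with 7790926 and 5216 tumour barcodes with 139657587. Levels are UMIs in 1000000 gene UMIs of a class (CPM), with an exact Poisson 95% interval that covers counting error only, and a gene was called higher or lower where the CPM ratio to tumour barcodes was at least 2 or at most 1/2 and the intervals were apart. The call compares barcodes of 1 library and is no test over samples. Barcodes that met more than 1 gate, held more than 1 tag, or were immune with 3 or more Krt8 and Krt18 UMIs were set aside. In the macrophage gate that was 158 of 514 barcodes, in which the tumour transcripts Sox9, Hmga2 and Ereg summed to 1488 CPM, against 53.0 CPM in those kept. In the T gate it was 178 of 878, at 1572 CPM against 87.6 CPM in those kept, while tumour barcodes stood at 1780 CPM. With the gates as written, 1 member was called in macrophage barcodes and 1 in T barcodes, against 5 and 6 as analysed. No share of all genes called is given for the gates as written, so these counts are descriptions only.

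The class labels held for macrophage and T barcodes, and less well for the others. All 7 macrophage markers outside the gate were found in macrophage barcodes, summing to 20867 CPM against 11.9 CPM in tumour barcodes, and all 7 T markers in T barcodes, summing to 3155 CPM against 2.76 CPM. Tumour barcodes nearly lacked the epithelial genes Krt7, Krt19, Epcam and Cdh1, each under 0.1 CPM, and were marked by Sox9, Hmga2 and Ereg. The gate proposed for fibroblasts did not hold mainly fibroblasts: 446 of its 602 barcodes had 3 or more UMIs of those 3 tumour transcripts, and Sox9 stood at 772 CPM in it, against 760 CPM in tumour barcodes. They are called Dcn/Lum barcodes here. The 8 fibroblast markers, none at 0, summed to 1386 CPM in T barcodes, against 807 CPM in tumour barcodes, and Col1a1 among them was at 420.1 CPM in T barcodes and 7.79 CPM without 15 mixed barcodes, described with Tgfb2. The 2 erythroid markers summed to 551 CPM in Dcn/Lum barcodes, against 27.8 CPM in tumour barcodes, and their part in the results was not tested. Dcn and Lum also reached 3 UMIs in 4805 of the 5216 tumour barcodes.

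Macrophage and T barcodes carried more of the ligand transcript Tgfb1 and of a receptor, and almost none of the target Ctgf. Macrophage barcodes were higher than tumour barcodes in Tgfb1, Tgfbr1 and Tgfbr2, that is 3 of 9 members where 15.6% of 14709 genes were higher, and lower in Tgfb2 and Ctgf, 2 of 9 where 16.2% were lower. T barcodes were higher in Tgfb1, Tgfbr2 and Smad7, 3 of 9 where 17.9% of 14756 genes were higher, and lower in Tgfb2, Tgfb3 and Ctgf, 3 of 9 where 15.8% were lower. Dcn/Lum barcodes were higher in Tgfb2 and Tgfbr2, 2 of 9 where 5.82% of 14638 genes were higher, and lower in none, where 3.16% were lower. The median ratio of the 9 genes to tumour barcodes was 0.699 in macrophage, 1.33 in T and 1.70 in Dcn/Lum barcodes, against 1.05, 1.16 and 1.04 over all genes compared. The 9 genes were picked as a pathway and not at random, and with counts this small the shares are descriptions only.

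**Figure D1:**
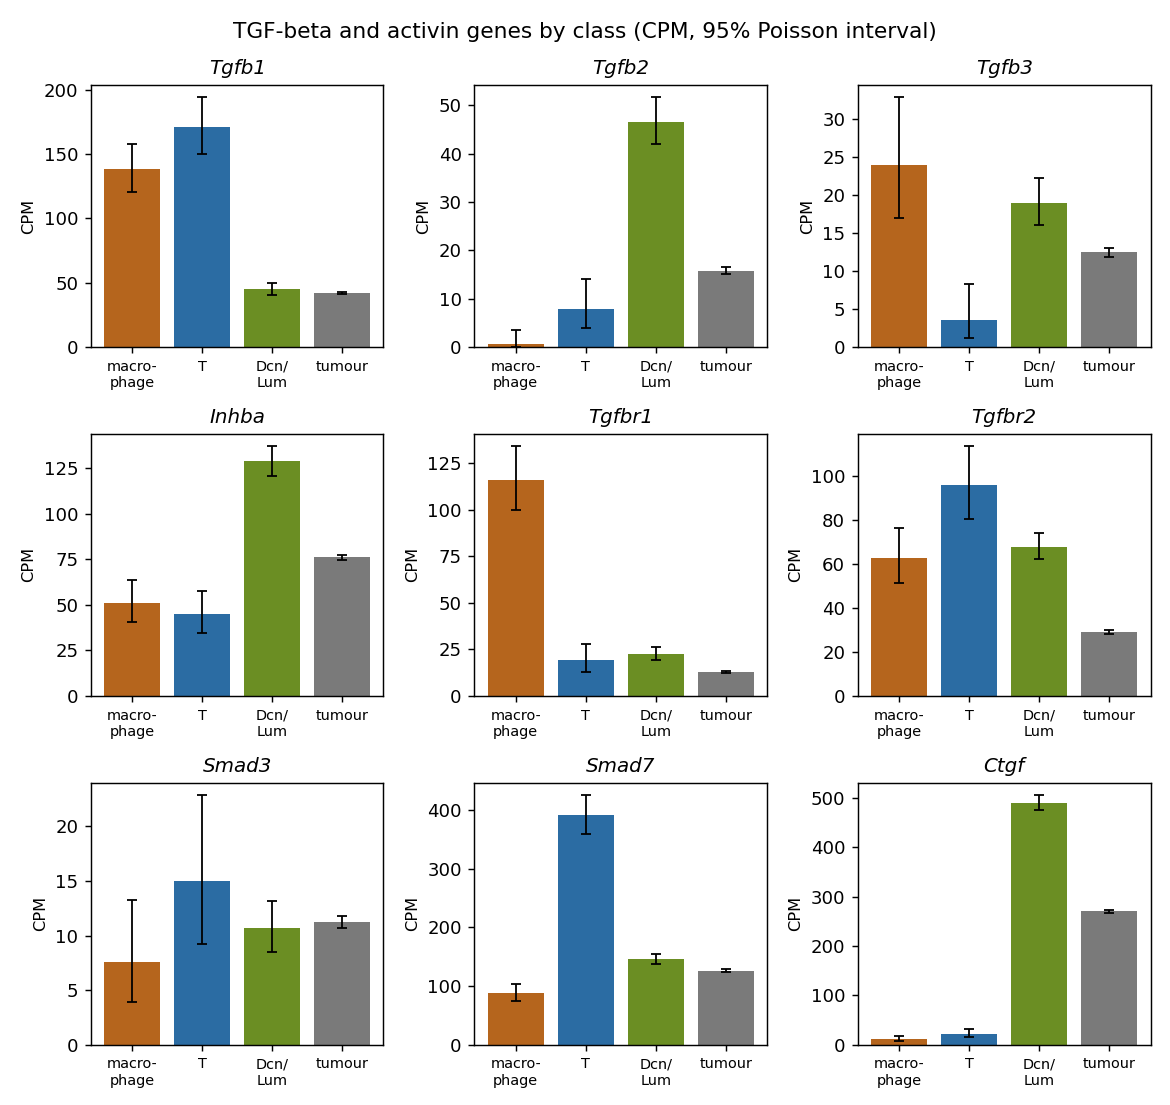
CPM of each of the 9 genes (vertical axis, from 0) in macrophage, T, Dcn/Lum and tumour barcodes (left to right); bars are UMIs in 1000000 gene UMIs of the class and whiskers exact Poisson 95% intervals. Tgfb1 is tallest in the immune classes, Tgfbr1 in macrophage and Smad7 in T barcodes, and Ctgf and Tgfb2 are tallest in Dcn/Lum barcodes.

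Among the ligands, Tgfb1, the TGF-beta most made by immune cells, was counted at 138 CPM (120.4 to 158) in macrophage, 171 (149.96 to 194) in T, 45.1 (40.5 to 50.0) in Dcn/Lum and 42.1 (41.0 to 43.2) in tumour barcodes. The immune classes overlapped each other, as did Dcn/Lum and tumour barcodes, and the 2 pairs stood apart. The ratio to tumour barcodes was 3.28 (2.86 to 3.76) for macrophage and 4.06 (3.55 to 4.62) for T barcodes. With the gates as written these ratios were 1.94 and 2.26.

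Each tagged sample showed the Tgfb1 difference. Macrophage barcodes had 112 CPM in U2, 155 in U4, 154 in D0 and 151 in D1, the tags with at least 20 such barcodes. T barcodes had 227 CPM in U2, 77.4 in U3, 225 in U4, 149.6 in D0, 173 in D1 and 297 in D4, against 43.9, 41.0, 31.6, 38.9, 41.6 and 42.8 CPM in tumour barcodes of the same tags in that order. The groups did not overlap, and in all 4 macrophage and all 6 T samples the interval lay above that of tumour barcodes of the same tag. T barcodes of U3 were lowest and those of D4, with 16 UMIs, highest. Without U3 the T ratio was 4.91.

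The share of barcodes with a Tgfb1 UMI depends on depth, since median UMIs per barcode were 4118.5 in macrophage, 1608.5 in T, 12832.5 in Dcn/Lum and 25137.5 in tumour barcodes. After each barcode was thinned to 1000 UMIs, 13.1% of macrophage, 13.6% of T, 5.12% of Dcn/Lum and 4.77% of tumour barcodes had one, among the 350, 655, 586 and 5201 barcodes deep enough. Unthinned, the shares were 40.2%, 23.9%, 37.9% and 60.8% in that order. As a gauge of free RNA, the tumour transcript Sox9 was seen at that thinning in 1.43% of macrophage, 3.97% of T and 48.7% of tumour barcodes, and setting aside immune barcodes with 3 or more keratin UMIs can lower the immune shares. Tumour barcodes nonetheless held most Tgfb1 UMIs of the pool, 67.0% of 8771, with 2.497% in macrophage, 2.74% in T and 4.002% in Dcn/Lum barcodes and the rest in barcodes set aside or in no class. These shares are not corrected for class size or depth. Of all 185064311 gene UMIs, tumour barcodes held 139657587, macrophage 1585494, T 1404377 and Dcn/Lum barcodes 7790926. Platelets are known to store TGF-beta 1, and of 3 platelet markers Itga2b was at 0 and Ppbp at 1 UMI in macrophage barcodes, while Pf4, which macrophages also express, stood at 1234 CPM. T barcodes had no UMI of Pf4 or Ppbp and 1 of Itga2b.

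Tgfb2, the isoform best known from mesenchymal and epithelial cells, was lowest in macrophage barcodes. It was at 0.631 CPM (1 UMI, 0.0160 to 3.51) in macrophage, 7.83 (3.91 to 14.0) in T, 46.6 (41.9 to 51.6) in Dcn/Lum and 15.8 (15.2 to 16.5) in tumour barcodes. All neighbours in this order were apart. The ratio to tumour barcodes was 0.0399 (0.00101 to 0.222) for macrophage and 2.95 (2.63 to 3.29) for Dcn/Lum barcodes. The classes were not matched for depth. In the shallowest of 4 depth groups of tumour barcodes, with a median of 14332 UMIs, Tgfb2 was at 22.8 CPM. The part of depth in the Dcn/Lum ratio was not tested.

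By tag, macrophage barcodes had no Tgfb2 UMI in U2, U4, D0 or D1. A count of 0 allows up to 8.24, 43.9, 20.2 and 4.73 CPM there, in that order. The interval lay below that of tumour barcodes of the same tag in 2 of 4 samples, U2 and D1. Dcn/Lum barcodes had 42.6 CPM in U2, 71.5 in U3, 29.6 in D0 and 62.2 in D1, against 13.1, 19.3, 8.78 and 16.6 CPM in tumour barcodes of those tags. All 4 Dcn/Lum values lay above every tumour value, with the intervals apart in 3 of 4. In T barcodes the level of Tgfb2 rested on few barcodes: 10 of its 11 UMIs lay in 5 barcodes, and without 15 mixed T barcodes it was 1.56 CPM. Those 15 carried 3 or more UMIs of Dcn and Lum or of the 3 tumour transcripts. The T ratio was 0.495 as analysed, 0.0985 without mixed barcodes and 1.10 with a minimum of 1000 genes per barcode, so no direction is drawn for T barcodes from the main value alone.

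Tgfb3, the third TGF-beta ligand, was at 23.97 CPM (17.0 to 32.9) in macrophage, 3.56 (1.16 to 8.31) in T, 19.0 (16.1 to 22.3) in Dcn/Lum and 12.5 (11.9 to 13.1) in tumour barcodes. Macrophage and Dcn/Lum barcodes overlapped and the other neighbours were apart. The macrophage ratio of 1.91 (1.35 to 2.64) fell short of a call and rested on 1 sample. By tag, macrophage barcodes had 49.2 CPM of Tgfb3 in U2, 0 in U4, 16.5 in D0 and 16.7 in D1, so U2 was high and U4 had no UMI, while tumour barcodes of D0 and D1 were at 16.3 and 11.98 CPM. Without U2 the ratio was 1.07, and without U3, U4, D0 or D1 it was called, at 2.01 to 2.45. T barcodes lay below tumour barcodes of the same tag in 6 of 6 samples, on 5 UMIs in all, and their ratio was 0.284 (0.0922 to 0.665).

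Inhba, which encodes the subunit of activin A, was at 51.1 CPM (40.6 to 63.5) in macrophage, 44.9 (34.5 to 57.4) in T, 129 (121 to 137) in Dcn/Lum and 76.0 (74.6 to 77.5) in tumour barcodes. The immune classes overlapped, and the other neighbours were apart, though no ratio reached a call. Inhba was uneven between barcodes. In macrophage barcodes 41 of 81 UMIs lay in 5 barcodes, and in T barcodes 59 of 63 did, 26 of them in 1. Without the mixed T barcodes the T level was 8.57 CPM and the ratio to tumour barcodes 0.113, which was called lower. In tumour barcodes 58.7% had an Inhba UMI and 1 barcode held 117.

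By tag, macrophage barcodes had 91.6 CPM of Inhba in U2, 35.7 in U4, 38.4 in D0 and 32.1 in D1, against 79.4, 53.6, 103 and 76.3 CPM in tumour barcodes. U2 alone was above its tumour barcodes, and without U2 the macrophage ratio was 0.473 and called lower. T barcodes had 18.2 CPM in U2, 90.3 in U3, 147 in U4, 3.75 in D1 and no UMI in D0 and D4. Without mixed barcodes U3 was at 6.14 CPM and U4 at 0, so the high samples rested on those barcodes. Without U3, or without U4, the T ratio was called lower, at 0.362 and 0.448. Dcn/Lum barcodes had 124 CPM in U2, 47.7 in U3, 227 in D0 and 156 in D1, above tumour barcodes in 3 of 4 samples with U3 below.

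Of the receptors, Tgfbr1, the kinase that phosphorylates SMAD2 and SMAD3, was highest in macrophage barcodes, at 116 CPM (99.9 to 134). It was at 19.2 CPM (12.7 to 28.0) in T, 22.7 (19.5 to 26.3) in Dcn/Lum and 12.7 (12.2 to 13.3) in tumour barcodes. The macrophage class stood apart from all others, T overlapped both Dcn/Lum and tumour barcodes, and the macrophage ratio to tumour barcodes was 9.11 (7.78 to 10.6). With the gates as written it was 3.97, the one macrophage call that held there. The Dcn/Lum ratio was 1.78 (1.52 to 2.08), below a call.

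By tag, macrophage barcodes had 87.2 CPM of Tgfbr1 in U2, 131 in U4, 93.3 in D0 and 133 in D1, against 12.9, 9.95, 13.05 and 11.4 CPM in tumour barcodes. No macrophage sample came near any tumour sample, and all 4 intervals were apart. Thinned to 1000 UMIs, 10.6% of macrophage barcodes and 1.33% of tumour barcodes had a Tgfbr1 UMI, against 36.5% and 26.0% unthinned.

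Tgfbr2, which binds the ligand first, was lowest in tumour barcodes. It was at 63.1 CPM (51.3 to 76.7) in macrophage, 96.1 (80.6 to 114) in T, 68.0 (62.4 to 74.1) in Dcn/Lum and 29.2 (28.3 to 30.1) in tumour barcodes. Macrophage and Dcn/Lum barcodes overlapped, and T and tumour barcodes each stood apart from their neighbours. The ratios to tumour barcodes were 2.16 (1.75 to 2.63) for macrophage, 3.29 (2.75 to 3.91) for T and 2.33 (2.12 to 2.55) for Dcn/Lum barcodes. In the shallowest of 4 depth groups of tumour barcodes Tgfbr2 was at 32.2 CPM, and the part of depth was not tested. The macrophage call was lost without D1, at 1.59, and with the gates as written, at 1.46, where the T ratio was 1.90 and also not called.

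By tag, T barcodes had 99.95 CPM of Tgfbr2 in U2, 101 in U3, 132 in U4, 94.5 in D0, 67.5 in D1 and 93.0 in D4, against 28.4, 40.4, 26.5, 26.9, 27.6 and 34.7 CPM in tumour barcodes. All 6 T values lay above all 6 tumour values, with the intervals apart in 5. Macrophage barcodes had 51.4 CPM in U2, 35.7 in U4, 49.4 in D0 and 79.5 in D1, above tumour barcodes in 4 of 4 samples with the intervals apart in 2, D1 being the highest. Dcn/Lum barcodes had between 56.7 and 85.9 CPM, above tumour barcodes in 4 of 4.

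**Figure D2:**
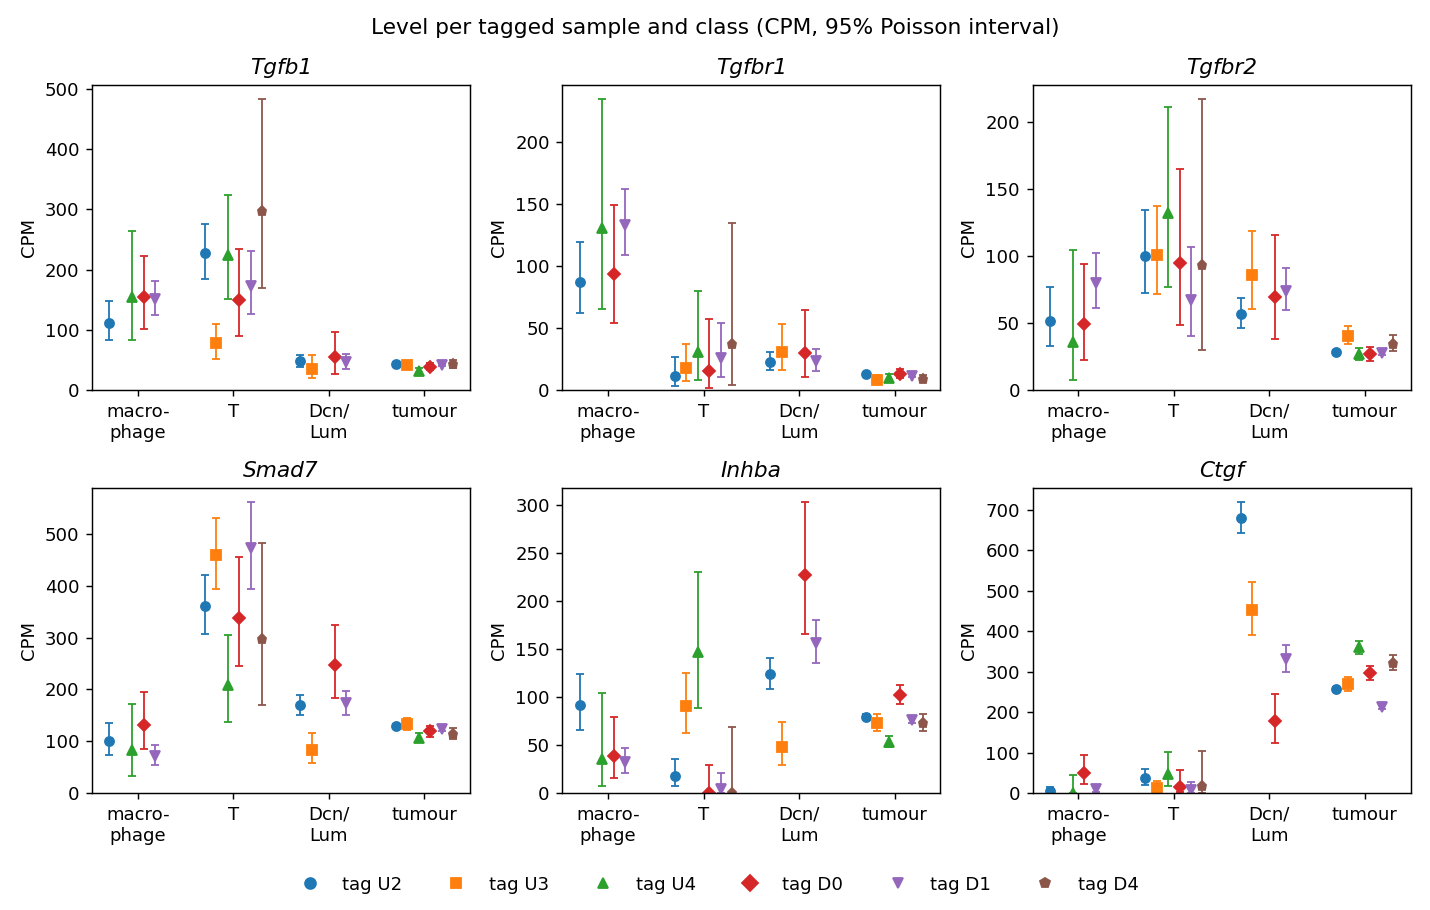
CPM of 6 of the genes (vertical axis, from 0) for each tagged sample with at least 20 barcodes in a class, in macrophage, T, Dcn/Lum and tumour barcodes (left to right); whiskers are exact Poisson 95% intervals and colours and symbols give the tag. Tgfb1 and Smad7 in T barcodes and Tgfbr1 in macrophage barcodes lie above tumour barcodes in every sample shown, while Ctgf in the immune classes lies below.

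Smad3, the receptor-activated SMAD, was low in every class and no class was called. It was at 7.57 CPM (3.91 to 13.2) in macrophage, 14.95 (9.26 to 22.9) in T, 10.7 (8.49 to 13.2) in Dcn/Lum and 11.2 (10.7 to 11.8) in tumour barcodes, and each class overlapped the next. The macrophage and T values rest on 12 and 21 UMIs, so their intervals are wide and small differences could be missed. By tag, macrophage barcodes lay below tumour barcodes in 4 of 4 samples and T barcodes above in 4 of 6, with no intervals apart. Dcn/Lum barcodes were above in 2 samples and below in 2. In D0 the intervals were apart, at 39.5 CPM (17.0 to 77.7) on 8 UMIs against 8.03 CPM (5.49 to 11.3) in tumour barcodes.

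Smad7, the inhibitory SMAD, was highest in T barcodes, at 391 CPM (359 to 425). It was at 88.3 CPM (74.3 to 104) in macrophage, 145 (137 to 154) in Dcn/Lum and 126 (124 to 128) in tumour barcodes, and all 4 classes were apart. The T ratio to tumour barcodes was 3.095 (2.84 to 3.37), and 1.93 with the gates as written, where it was not called. The macrophage ratio was 0.699 (0.588 to 0.826), short of a call.

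By tag, T barcodes had 361 CPM of Smad7 in U2, 459 in U3, 209 in U4, 339 in D0, 472 in D1 and 297 in D4, against 130.4, 133, 106, 119, 124 and 115 CPM in tumour barcodes. The lowest T sample was above the highest tumour sample, and all 6 intervals were apart. Macrophage barcodes had 101 CPM in U2, 83.3 in U4, 132 in D0 and 71.8 in D1, below tumour barcodes in 3 of 4 samples with D0 above. Without mixed barcodes D0 was at 107 CPM, below its tumour barcodes too. Thinned to 1000 UMIs, 33.6% of T barcodes and 12.3% of tumour barcodes had a Smad7 UMI, and unthinned 48.1% and 85.0%.

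Ctgf, a matricellular protein gene induced by TGF-beta and by YAP, was low in both immune classes. It was at 11.98 CPM (7.21 to 18.7) in macrophage, 22.8 (15.6 to 32.2) in T, 490.3 (475 to 506) in Dcn/Lum and 271 (268 to 274) in tumour barcodes. The immune classes overlapped each other and the other neighbours were apart. The ratios to tumour barcodes were 0.0443 (0.0266 to 0.0691) for macrophage and 0.0841 (0.0575 to 0.119) for T barcodes, and 1.81 (1.75 to 1.87) for Dcn/Lum barcodes, which was short of a call. Among tagged barcodes alone the Dcn/Lum ratio reached a call. Untagged Dcn/Lum and tumour barcodes were at 442 and 313 CPM.

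The Ctgf counts of the immune classes were set against a gauge of free RNA. The 3 tumour transcripts stood in macrophage barcodes at 2.98% and in T barcodes at 4.92% of their tumour level, shares that would bring 8.06 and 13.3 CPM of Ctgf. The macrophage interval held its value and the T interval lay above it. Without mixed barcodes Ctgf was 8.32 CPM in macrophage and 10.1 CPM in T barcodes, where the shares fell to 1.65% and 3.15% and would bring 4.48 and 8.53 CPM. The part of free RNA in these counts was not tested. With the gates as written, which admit barcodes rich in tumour transcripts, the ratios were 0.672 and 0.718. For Tgfb1 and Tgfbr1 in macrophage barcodes the same shares would bring 1.25 and 0.379 CPM, and for Smad7 in T barcodes 6.22 CPM.

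By tag, Dcn/Lum barcodes had 679 CPM of Ctgf in U2, 453 in U3, 178 in D0 and 331 in D1, against 257, 268, 295 and 212 CPM in tumour barcodes. U2, U3 and D1 were above and D0 below, each with intervals apart, so the direction differed between samples. Macrophage barcodes had 0 to 49.4 CPM over 4 tags and T barcodes 7.50 to 46.5 CPM over 6, all below tumour barcodes. Over all 6 tags, tumour barcodes had between 212 CPM in D1 and 359.5 CPM in U4.

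**Figure D3:**
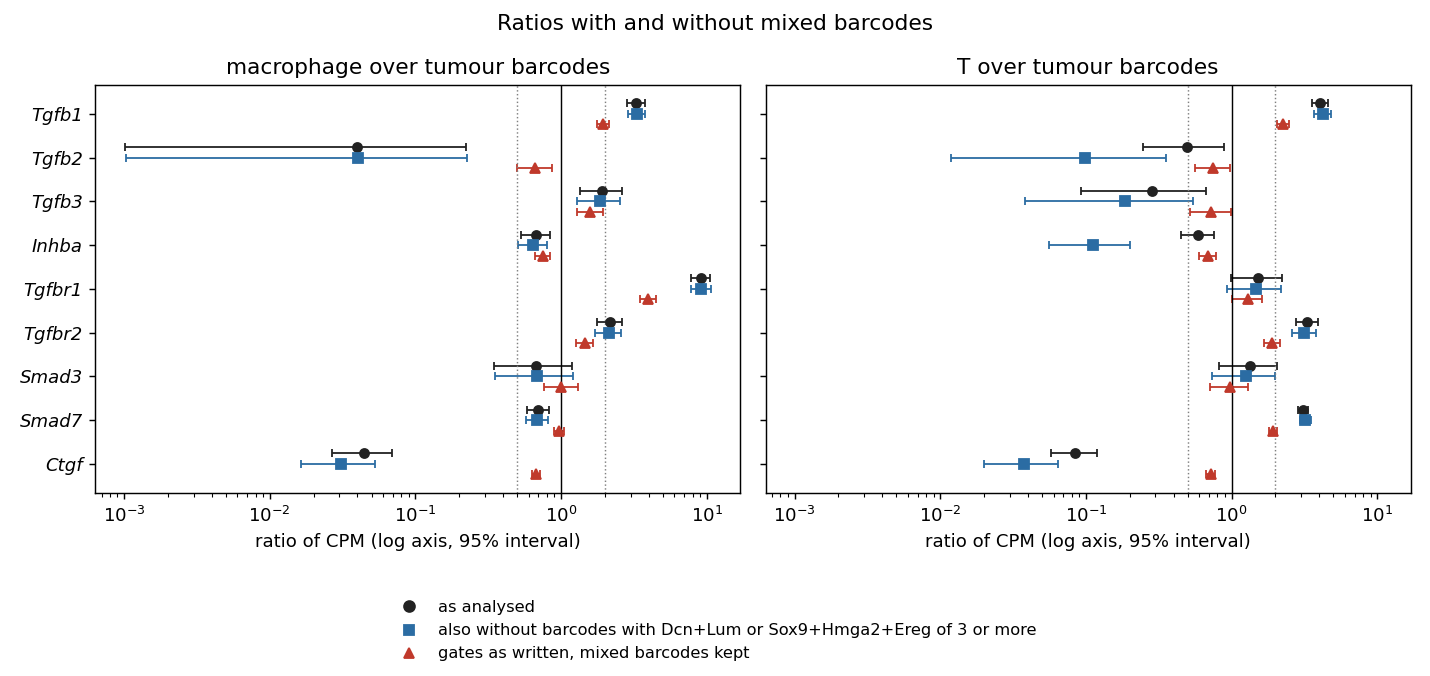
Ratio of CPM in macrophage (left) and T barcodes (right) to tumour barcodes for each gene, on a log axis with 95% intervals; dotted lines mark 0.5 and 2. Black points are the classes as analysed, blue squares leave out mixed immune barcodes as well, and red triangles use the gates as written, which lie closer to 1 for the genes that were called.

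Dcn/Lum barcodes were a mixture for these genes as well. The 156 barcodes with 2 or fewer UMIs of the tumour transcripts, a split made after the class had been inspected, had 6816 CPM of the collagen gene Col1a1 and 137 CPM of Pdgfra, a fibroblast receptor, and the 446 with more had 256 and 22.1 CPM. In the 156, Inhba was at 267 CPM (236 to 301) and Tgfbr2 at 163 CPM (139 to 190.3), against 109 (101 to 117) and 54.1 (48.7 to 60.0) CPM in the 446. The ratios between the parts were 2.46 and 3.01, both called. Relative to tumour barcodes, 5 members were called higher in the 156, namely Tgfb2 at 3.57 (2.69 to 4.65), Tgfb3 at 2.25 (1.49 to 3.27), Inhba at 3.51 (3.097 to 3.97), Tgfbr1 at 2.69 (1.86 to 3.77) and Tgfbr2 at 5.59 (4.75 to 6.54). In the 446 only Tgfb2 was called, at 2.86 (2.53 to 3.22). Ctgf was much the same in both, at 541 and 483 CPM, and Tgfb1 was called in neither, at 55.4 and 43.5 CPM. No share of all genes called is given for these parts, so the counts of members are descriptions only. The limit on UMIs favours shallow barcodes, and the parts were not matched for depth or shown by tag.

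Within tumour barcodes, Tgfb2 and Ctgf were called lower in cycling barcodes. Of 5216, 1772 had 2 or more UMIs of the proliferation genes Mki67 and Top2a. Ctgf was at 157 CPM (154 to 160.3) in these, against 356 CPM (351 to 359.7) in the others, a ratio of 0.442 (0.432 to 0.452). Tgfb2 was at 8.36 CPM (7.65 to 9.13), against 21.4 CPM (20.4 to 22.4), a ratio of 0.391 (0.353 to 0.433). Both were lower in cycling barcodes in 6 of 6 tagged samples. Ctgf was at 134 to 230.3 CPM against 287 to 483 CPM, without overlap. The Tgfb2 ranges overlapped, at 3.96 to 14.8 CPM against 12.6 to 23.7 CPM. The other 7 members had ratios between 0.732 (Tgfbr2) and 0.986 (Smad3), and none was called. Of these, Tgfb3 and Tgfbr2 were also lower in 6 of 6 samples, Tgfb1, Inhba, Tgfbr1 and Smad7 in 5 of 6 and Smad3 in 4 of 6. Cycling barcodes were deeper, with a median of 32128 UMIs against 22386.5. Across 4 groups of tumour barcodes of rising depth, Tgfb2 was at 22.8, 20.03, 15.2 and 12.004 CPM and Ctgf at 288, 335, 296 and 216 CPM. The part of depth in the cycling difference was not tested. No share of all genes called is given for this split, so the calls of Tgfb2 and Ctgf are descriptions only.

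**Figure D4:**
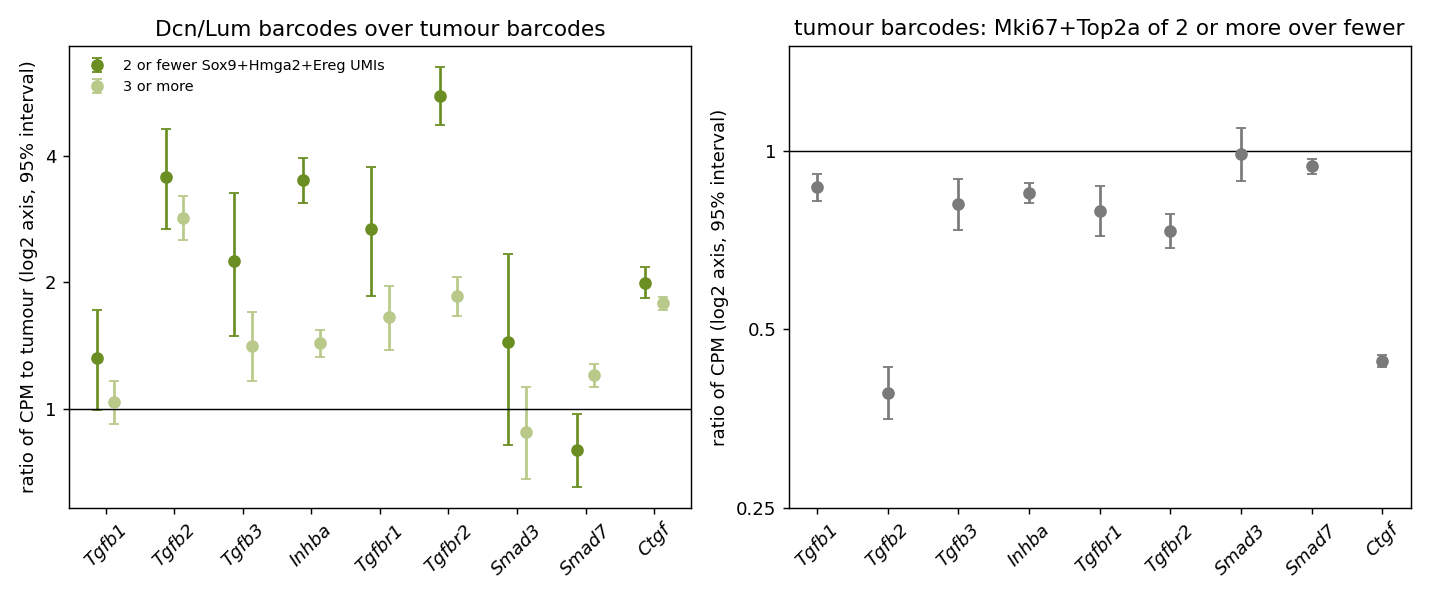
Ratios of CPM on log2 axes with 95% intervals for the 9 genes. Left: Dcn/Lum barcodes with 2 or fewer (dark) and 3 or more (light) UMIs of Sox9, Hmga2 and Ereg, each over tumour barcodes, with Tgfbr2 at 5.59 in the dark points. Right: tumour barcodes with 2 or more Mki67 and Top2a UMIs over those with fewer, where Tgfb2 and Ctgf are at 0.391 and 0.442 and the rest lie nearer 1.

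Splits of the immune classes showed less. Macrophage barcodes with the arginase gene Arg1 (266) and without it (90) differed in no member by the call. Tgfb1 was at 134 and 155 CPM and Tgfbr1 at 112 and 135 CPM in them. T barcodes were split into 62 with Foxp3, the regulatory T cell factor, 299 of the others with Cd8a or Cd8b1, and 52 of the rest with Cd4. Smad7 was at 429, 356 and 479 CPM and Tgfb1 at 145, 157 and 199 CPM in them, and no difference was called but that of Inhba. That one rested on mixed barcodes, since the 27 Inhba UMIs of the Foxp3 barcodes lay in 2 barcodes, and without mixed barcodes the level was 7.75 CPM.

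The rest of the pathway was described from lists that hold no member. Their counts are descriptions, to be read beside the shares of all genes that were called. Of 17 genes of latency and activation, 3 were higher and 6 lower in macrophage barcodes, 4 higher and 8 lower in T barcodes, and 3 higher in Dcn/Lum barcodes. Over all genes the shares higher and lower were 15.6% and 16.2% in macrophage, 17.9% and 15.8% in T, and 5.82% and 3.16% in Dcn/Lum barcodes. The binding proteins Ltbp1, Ltbp2, Ltbp3 and Ltbp4, which store latent TGF-beta in the matrix, were lower in both immune classes. Thbs1, encoding thrombospondin 1, an activator of latent TGF-beta, was at 1193 CPM in macrophage, 24.2 in T, 166 in Dcn/Lum and 57.8 in tumour barcodes, a macrophage ratio of 20.6 (19.6 to 21.7) seen in 4 of 4 samples. Without mixed barcodes Thbs1 in T barcodes was at 3.89 CPM. The protease gene Mmp14 was at 199.9 CPM in macrophage and 191 CPM in tumour barcodes and was lower in T barcodes, at 65.5 CPM and at 13.2 CPM without mixed barcodes. The integrin gene Itgb1 was called in no class.

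The membrane anchors of latent TGF-beta divided by class, an observation chosen after their values were seen. Nrros, the anchor of myeloid cells, was at 70.0 CPM in macrophage, 8.54 in T, 0.128 in Dcn/Lum and 0.0788 in tumour barcodes. Lrrc32, known as GARP on regulatory T cells, had no UMI in macrophage barcodes, which allows up to 2.33 CPM, and was at 27.8 CPM in T, 5.65 in Dcn/Lum and 0.308 in tumour barcodes. Nrros was above tumour barcodes in 4 of 4 macrophage samples, and Lrrc32 in 5 of 6 T samples. Furin, the protease that cleaves the precursors, was at 165 CPM in macrophage, 54.1 in T, 31.2 in Dcn/Lum and 25.9 in tumour barcodes.

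Of 7 other receptors counted often enough to compare, 3 were higher and 2 lower in macrophage barcodes, 1 higher and 3 lower in T barcodes, and 2 higher in Dcn/Lum barcodes. Of all genes, 15.6% were higher and 16.2% lower in macrophage barcodes, 17.9% and 15.8% in T barcodes, and 5.82% were higher in Dcn/Lum barcodes. Acvrl1, a type I receptor best known from endothelium, was at 37.8 CPM in macrophage, 4.27 in T, 3.34 in Dcn/Lum and 0.0430 in tumour barcodes. The 4 endothelial markers summed to 8.20 CPM in macrophage barcodes, with 1 of them at 0. Acvr1 was at 10.7 CPM in macrophage, 3.56 in T, 64.9 in Dcn/Lum and 56.5 in tumour barcodes, and Tgfbr3, the co-receptor betaglycan, at 1.26, 12.8, 45.2 and 34.5 CPM in that order. Both were lower in the immune classes. Of the other ligands, Inhbb was at 33.1 CPM in Dcn/Lum barcodes against 11.7 CPM in tumour barcodes and was called higher. Gdf11 was at 1.89 CPM in macrophage barcodes against 11.2 CPM, called lower, and Gdf15, at 6.31 CPM in macrophage barcodes, had 1 UMI in tumour barcodes. Those 3 were the ligands compared in macrophage barcodes, 1 of them higher and 2 lower. In T barcodes 1 of 2 compared was lower, and in Dcn/Lum barcodes 1 of 2 was higher. Gdf15 met the minimum of 10 UMIs only through its 10 macrophage UMIs. Acvrl1, with 6 UMIs in tumour barcodes, also needed those of the other class to meet it. Their higher calls followed from that filter and are no result.

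Among 15 other Smads and partners, 3 were higher and 4 lower in macrophage barcodes, 2 higher and 3 lower in T barcodes, and none was called in Dcn/Lum barcodes. Beside the 15.6% higher and 16.2% lower of all genes in macrophage and the 17.9% and 15.8% in T barcodes, these counts are not read as a result about the list. Skil, a repressor of SMAD transcription that TGF-beta induces, was at 284 CPM in macrophage, 238 in T, 144 in Dcn/Lum and 105 in tumour barcodes, called in both immune classes and above tumour barcodes in 4 of 4 and 6 of 6 samples. Its relative Ski was at 135 CPM in macrophage, 55.5 in T, 71.5 in Dcn/Lum and 54.7 in tumour barcodes, and was called in macrophage barcodes. Tgif1 was called in none.

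Of 5 inhibitors compared, 1 was higher and 2 lower in macrophage barcodes, 1 higher and 1 lower in T barcodes, and 3 higher in Dcn/Lum barcodes, where 5.82% of all genes were higher. Without mixed barcodes 3 were lower in T barcodes, namely Fst, Fstl1 and Bgn. Over all genes 15.6% were higher and 16.2% lower in macrophage, and 17.9% and 15.8% in T barcodes. Bambi, a decoy receptor, was at 24.6 CPM in macrophage, 14.2 in T, 2.05 in Dcn/Lum and 0.995 in tumour barcodes. Fstl1 was at 9.46 CPM in macrophage and 44.9 CPM in T barcodes (14.0 CPM without mixed barcodes), against 226 CPM in tumour barcodes, lower in both. Bgn, a matrix proteoglycan, was at 313 CPM in Dcn/Lum barcodes against 37.0 CPM. In T barcodes it was at 61.9 CPM, and at 3.89 CPM without mixed barcodes, when it was called lower.

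Of 17 genes known to be induced by TGF-beta, 3 were higher and 10 lower in macrophage barcodes, 4 higher and 9 lower in T barcodes, and 3 higher in Dcn/Lum barcodes. Of all genes, 15.6% were higher and 16.2% lower in macrophage, 17.9% and 15.8% in T barcodes, and 5.82% higher in Dcn/Lum barcodes. Tgfbi was at 1319 CPM in macrophage, 29.2 in T, 167 in Dcn/Lum and 265 in tumour barcodes, higher in macrophage and lower in T barcodes. Fn1, encoding fibronectin, was at 1644 CPM in macrophage, 351 in T, 4835 in Dcn/Lum and 3432 in tumour barcodes, lower in both immune classes, and at 171 CPM in T barcodes without mixed ones. Col1a1 was at 1091 CPM in Dcn/Lum barcodes against 29.2 CPM in tumour barcodes. Its 420 CPM in T barcodes fell to 7.79 CPM without the 15 mixed barcodes, and the count of T targets was then 2 higher and 11 lower. Itgae, an integrin gene of resident T cells, was at 61.2 CPM in T barcodes and at 67.0 CPM without those 15, and above tumour barcodes in 6 of 6 samples.

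Ctgf is also a target of YAP. Of 6 other YAP targets, 1 was higher and 4 lower in macrophage barcodes, 5 were lower in T barcodes and none was called in Dcn/Lum barcodes. Of all genes, 15.6% were higher and 16.2% lower in macrophage barcodes, and 15.8% lower in T barcodes. Cyr61 was at 3.78 CPM in macrophage, 22.8 in T (7.01 without mixed barcodes), 236 in Dcn/Lum and 175 in tumour barcodes, and Ankrd1 at 1.26, 3.56, 36.5 and 60.3 CPM in that order. Axl, a receptor kinase of macrophages and invasive tumour cells, was higher in macrophage barcodes, at 247 CPM against 96.7 CPM in tumour barcodes. In T barcodes it was lower, at 15.7 CPM.

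Within tumour barcodes the members varied together only weakly. Over 4937 tumour barcodes with at least 10000 UMIs, which share 1 library, the highest Pearson r between 2 members on log-scaled UMIs was 0.236, for Tgfb2 and Ctgf, followed by 0.196 for Tgfb2 and Tgfbr2 and 0.167 for Tgfbr2 and Ctgf. The lowest was -0.0613, for Inhba and Tgfbr2. These counts are sparse, and r is given as a description.

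The genes whose pattern was most like a member's over the same barcodes, among 9114 genes, differed between members. For Ctgf they were Postn at an r of 0.510, Mgp, Sdc2, Igfbp7 and Cp at 0.447, and for Tgfbr2 they were Postn at 0.252, Sdc2, Col8a1, Col6a1 and Fn1. Inhba was most like Ptgs2, at 0.257, then Vegfa, Cd44, Tsc22d1 and Cdkn1a. Smad7 was most like Egr1, at 0.271, then Nfkbiz, Sox9, Ier3 and Bhlhe40, and Tgfb1 most like Serpine2, at 0.158, then Mgp, Mmp3, Fn1 and Hsd11b1. Ranked by Spearman rho, 5 of 5 genes were shared for Tgfb1 and 4 of 5 for each of the others. Tgfb2, Tgfb3, Tgfbr1 and Smad3 averaged under 0.5 UMIs in these barcodes and were not ranked.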

How the data were processed

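Transcripts were counted in 1 pooled droplet library of mouse tumours. The deposited matrix holds raw UMI counts per gene and barcode. Per the submitters' processing notes the tools include Cell Ranger and the build is mm10; per the file headers the software version is 3.1.0. The annotation was not given in the sources used here. A barcode of the 9747 entered with 500 or more genes and a mitochondrial share below 15%. Tags were assigned with HTODemux (Seurat 5.3.0, R 4.3.3, quantile 0.99, seed 42), leaving 5590 barcodes on 1 tag, 2329 on none and 865 on more. Those with more were set aside as doublets, and doublets of 1 tag remain. Untagged were 1851 of the 5216 tumour and 316 of the 602 Dcn/Lum barcodes, but 0 macrophage and 0 T barcodes. The class levels and ratios include untagged barcodes, and values by tag leave them out. Sums, intervals and figures were made in Python 3.11.15 with scipy 1.17.1. Genes with at least 10 UMIs over 2 classes were compared, with exact conditional intervals for ratios. The call was tried on simulated Poisson counts with planted changes. These lack the uneven counts and mixed barcodes of the data, so they do not show how the call behaves there. Shares were taken after thinning to 1000 UMIs at seed 1. No p-value was computed: the tags are samples of no known group and were not taken as replicates, so a class is set against tumour barcodes of the same tag by values and counts. The tags lie in 1 library, so they differ in no batch that could be compared. In the text stand all 9 members, the 3 genes with the highest CPM of each pathway list, the 5 genes most like a member, and genes said to have been chosen later. The members and lists were chosen with earlier results of these data known. Alternatives changed gates, filters, folds, scaling and tags. A split of T barcodes is not reported here.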

Additional observations from a re-analysis of the deposited data

Results flagged for a closer look

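Each member's CPM per tag was checked within each class with 4 or 6 samples, 35 sets in all, for a sample far from the rest (Dixon's ratio at the 95% critical value), and 3 were found, where chance flags about 1 set in 20. Tgfb1 in macrophage barcodes was lowest in U2, at 111.7 CPM on 50 UMIs, with the other 3 samples between 151 and 155 CPM. Inhba in macrophage barcodes was highest in U2, at 91.6 CPM on 41 UMIs, with the others between 32.1 and 38.4 CPM. Smad3 in T barcodes was highest in D4, at 55.8 CPM, a value of 3 UMIs.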

How the results depend on the processing

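As analysed, 5 members were called in macrophage, 6 in T and 2 in Dcn/Lum barcodes. With the gates as written 1 was called in macrophage and 1 in T barcodes; the barcodes this adds carry the tumour transcripts at nearly the tumour level. With no minimum fold 8 were called in macrophage and 7 in Dcn/Lum barcodes, and with a fold of 1.5 it was 6 in Dcn/Lum barcodes, since fewer differences are held back. Over all genes, no minimum fold gave 22.5% higher and 25.2% lower in macrophage and 18.8% and 19.3% in Dcn/Lum barcodes, and a fold of 1.5 gave 9.17% and 6.86% in Dcn/Lum barcodes. In Dcn/Lum barcodes with a low tumour signature, a split added after seeing the data, 5 members were called. No share of all genes is given beside that count. Leaving out each tag in turn gave 5 to 6 members in macrophage, 5 to 7 in T and 2 in Dcn/Lum barcodes. Tgfb2 in T over tumour barcodes turned to 1.10 with a minimum of 1000 genes, against 0.495 as analysed, and was 0.243 when mixed barcodes were left out too. The T counts were 4 and 6 under those settings. No share of all genes is given for the gates as written, the tags left out or the gene minimum. Those counts of members are descriptions only. The Tgfb2 call in T barcodes was also lost without D1, U4 or D4 (0.621, 0.538 and 0.518) and under the other scaling (0.566). With tagged barcodes only, that call was lost too, and Ctgf in Dcn/Lum barcodes gained a call. Alternatives that left no tag out were also counted over the single ratios. Of these, 269 kept their side of the call and lay within their interval, and 33 moved further. Another 24 gained and 15 lost a call and 1 turned. Of the 269, 27 came from a minimum of 0 UMIs, which changed no ratio. A further 21 and 18 came from a fold of 1.5 and no minimum fold, which change only the call. These could not move, and those folds gave 6 and 9 of the 24 gained calls. Classes were compared within tags by counts only, without a test, since samples of no known group were not taken as replicates. Low UMI totals of the immune classes limit Tgfb2, Tgfb3 and Smad3 there.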
